A study of Mus musculus with 4 samples.

Results

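The genes described here encode the proteasome, the protease that breaks down ubiquitin-tagged proteins, in mouse embryonic fibroblasts (MEFs) with and without Dnmt3l. They were chosen by name alone: every gene symbol in the deposited RefSeq transcript table made of Psm, a letter from a to g and a number, with the counts of its transcripts summed. This gave 48 genes (87 transcripts) of 36846 symbols in all. Of the 48, 46 passed the filter on low counts, and Psmb9 and Psmb11 did not. Over all symbols, 14760 passed.

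Wild-type (WT, 2 libraries) and Dnmt3l-KO (2 libraries) MEF lines were compared. Dnmt3l has no catalytic activity of its own and acts as a partner of the enzymes that set new DNA methylation, and the study looked for expression differences in knockout donor cells for nuclear transfer. Both groups were C57BL/6 lines at passage 4, grown in DMEM with 10% FBS, and came from day 13.5 to 14.5 embryos of crosses between Dnmt3l+/- parents. RNA depleted of ribosomal RNA was sequenced with random priming. No label ties the libraries of a genotype to separate embryos or lines, so p-values cover only how far these libraries spread, and that spread may be technical.

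Total counts ranged from 40681328 to 51465395 per library. Dnmt3l itself had 6 counts and 1 count in the WT libraries and 0 in both Dnmt3l-KO libraries, too few to check the genotypes. All 12 fibroblast markers examined were detected, with a summed level of 17659.5 to 25245.0 CPM (counts scaled to equal library sizes). The summed levels of 11 macrophage and leukocyte, 8 epithelial and 8 endothelial markers were 10.3 to 13.9, 41.7 to 55.1 and 10.1 to 20.6 CPM, with Esrp1 and Cldn5 at 0 in all libraries. Most of the epithelial sum came from Krt19. The part of these cells in the results below was not tested.

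The proteasome is built from a barrel-shaped core particle and a regulatory particle that caps it. The core has outer rings of alpha subunits, which gate the entry, and inner rings of beta subunits, of which Psmb5, Psmb6 and Psmb7 carry the chymotrypsin-like, caspase-like and trypsin-like sites. Under interferon these are exchanged for Psmb8, Psmb9 and Psmb10, which gives the immunoproteasome, known for making peptides for MHC class I. In the regulatory particle the base holds a ring of ATPases that unfold the substrate, and the lid removes its ubiquitin chain. When proteasome activity is low, the transcription factor Nfe2l1 raises genes of the constitutive core, the base and the lid together through antioxidant response elements.

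Sequences upstream of catalytic genes are shown because the levels of constitutive genes and their immunoproteasome counterparts are set side by side after them. They are RefSeq promoter windows (GRCm38.p6) of 300 bases, 250 before the start site and 50 after it, which the table held for 40 of the 48 genes in 43 windows. The genes not matched were Psma8, Psmb1, Psmb2, Psmb7, Psmc3, Psmd3, Psmd7 and Psmg2. Stretches covered by an annotated exon were left out, and for Psmb8 and Psmb9 30 bases around a match are given. Capitals mark matches to the motifs named in the next paragraph, and CCGCCC in Psmb6 is the GC box read on the opposite strand. The coordinates, in the order of the lines, are chr14:54618023-54618245 (minus strand), chr11:70525107-70525356 (plus), chr17:34198087-34198116 (plus) and chr17:34187368-34187397 (minus).
Psmb5: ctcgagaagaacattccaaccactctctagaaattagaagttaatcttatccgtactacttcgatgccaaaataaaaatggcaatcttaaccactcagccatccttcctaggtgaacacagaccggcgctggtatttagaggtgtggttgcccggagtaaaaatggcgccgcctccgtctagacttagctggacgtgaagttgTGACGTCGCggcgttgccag
Psmb6: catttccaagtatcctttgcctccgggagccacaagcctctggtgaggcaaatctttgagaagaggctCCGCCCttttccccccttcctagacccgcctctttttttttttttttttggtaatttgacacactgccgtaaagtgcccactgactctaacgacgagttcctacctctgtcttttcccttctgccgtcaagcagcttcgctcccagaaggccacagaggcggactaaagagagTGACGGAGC
Psmb8: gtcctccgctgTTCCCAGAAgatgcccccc
Psmb9: tgcgcgatgatgGGGCGGggcctcagtctg

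Motifs were searched on both strands, and a match describes letters, not a bound site. The antioxidant response element (TGACNNNGC) was in the windows of 6 genes, Psmb5, Psmb6, Psmc6, Psmd9, Psmd12 and Psme4, that is 14% of the 43 windows against 12.4% of all 32851. In Psmb5 and Psmb6 it lay 47 and 9 bases upstream of the start. The GC box (GGGCGG) was in 55.8% of the proteasome windows and 35.7% of all, among them Psmb6 and Psmb9. The CCAAT box (CCAAT) was in 32.6% and 37.4%. The gamma-activated site (TTCNNNGAA), through which interferon gamma acts, was in 6.98% of the proteasome windows and 8.3% of all, with one match in Psmb8. The core of the interferon-stimulated response element, a pair of GAAA blocks 2 bases apart, was in 11.6% and 3.44%, in Psmb3, Psmd4, Psmd9, Psme1 and Psmg4. None of these letters matched in the Psmb10 window. The CCAAT and GC box are common in promoters, and no motif overlapped another in the stretches shown.

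By level per length (FPKM, fragments scaled to transcript length and library size), the constitutive catalytic subunits were among the most abundant proteasome genes and the immunoproteasome subunits among the least, in all 4 libraries. Psmb5 had 124.0 and 145.3 FPKM in WT and 124.1 and 124.0 FPKM in Dnmt3l-KO, while its counterpart Psmb8 had 0.388 and 0.493 FPKM in WT and 0.208 and 0.532 FPKM in Dnmt3l-KO. Psmb8 therefore made up 0.168% to 0.427% of the pair. Psmb6 had 128.8 and 137.3 FPKM in WT and 126.1 and 123.6 FPKM in Dnmt3l-KO, and Psmb9 had 0.193 and 0.276, and 0.117 and 0.0617 FPKM. Here and below, values given as pairs without a genotype are those of WT and then of Dnmt3l-KO, replicate 1 first. Psmb7 had 141.0 and 139.9 FPKM in WT and 132.7 and 126.2 FPKM in Dnmt3l-KO. Psmb10 stood 21.9-fold to 25.0-fold below Psmb7, at 5.78 and 6.39 FPKM in WT and 5.31 and 5.54 FPKM in Dnmt3l-KO, and was the one immunoproteasome gene above 1 FPKM.

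**Figure D1:**
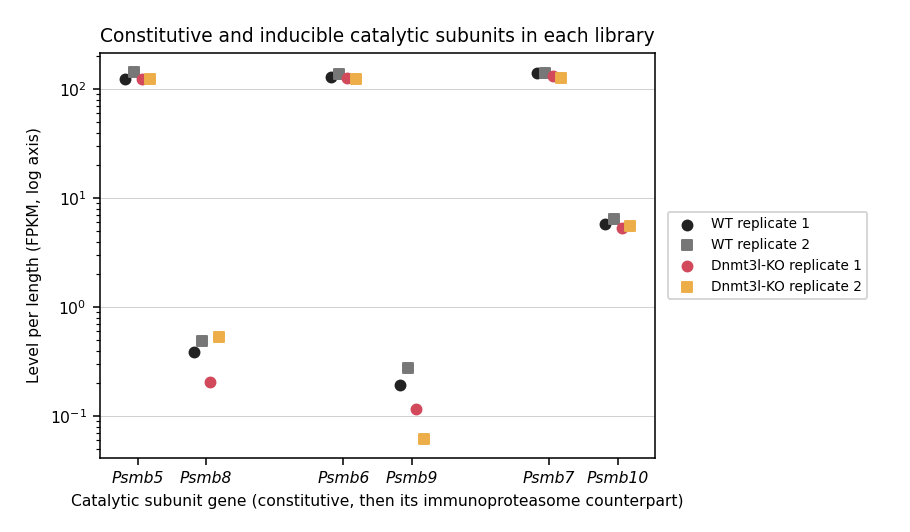
Level per length (FPKM, log axis) of the catalytic subunit genes Psmb5, Psmb6 and Psmb7 and of their immunoproteasome counterparts Psmb8, Psmb9 and Psmb10, with one point for each of the 4 libraries. Psmb8 and Psmb9 lie below 1 FPKM in every library and Psmb10 between 5.31 and 6.39 FPKM, against 123.6 to 145.3 FPKM for the constitutive genes.

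No proteasome gene passed the test between the genotypes. In edgeR's quasi-likelihood test 0 of 46 had an adjusted p under 0.05, against 0.0203% of all genes tested (3 of 14760), and the smallest adjusted p among the 46 was 0.999. DESeq2's Wald test also called 0 (0.205% of all genes), as did limma-voom (0.0203%) and limma on FPKM values logged after adding 1 (0.0407%) or 0.1 (0.061%). At an unadjusted p under 0.05 edgeR had 4 of the 46, against 4.15% of all genes, namely Psmd3, which was higher in Dnmt3l-KO, and Psmd6, Psma4 and Psmb4, which were lower. In that test 2.34% of all genes were at this level with a higher and 1.81% with a lower value in Dnmt3l-KO. DESeq2, which tested 48 of the proteasome genes, had 0 at that level, and its share over all genes is not given here. Of the 63 proteasome transcripts with an adjusted p in the authors' own deposited comparison, 0 had one under 0.05. The share over all transcripts of that comparison is not given here, so this count does not set the proteasome transcripts apart. Among the proteasome transcripts the smallest unadjusted p of that comparison was 0.0592, for a predicted transcript of Psmg2.

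More of the fitted differences were negative than positive. The median log2 fold change over the 46 genes was -0.11, against 0.01 over all genes tested, and 34 of the 46 had a negative value, against 48.7% of all genes. In 21 of 46 both Dnmt3l-KO libraries lay below both WT libraries, against 16.5% of all genes, and in 2 both lay above, against 16.2%. The log2 fold changes ran from -0.37 to 0.27, and 42 of the 46 95% intervals spanned 0. All but 2 intervals lay within -1 to 1, the exceptions being Psma8 and Psmb8 with their low counts. Summed over the 48 genes the level was 4910.5 and 4762.2 CPM in WT and 4784.2 and 4298.7 CPM in Dnmt3l-KO, so Dnmt3l-KO replicate 1 lay within the WT range and replicate 2 below it. In such bulk samples fewer cells of a type and less RNA per cell cannot be told apart.

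The median was further below 0 in Dnmt3l-KO replicate 2 than in replicate 1, and it was smaller once transcript length and GC content were corrected for. The median was -0.17 without Dnmt3l-KO replicate 1 and -0.07 without replicate 2, with 36 of 46 and 30 of 47 genes negative (50.3% and 52.2% of all genes in those fits). With each library corrected for length and GC content it was -0.05, with 28 of 46 negative against 48.5% of all genes, and 0 of the 46 then had an unadjusted p under 0.05 in edgeR, against 2.15% of all genes. Dnmt3l-KO replicate 2, lowest in the summed proteasome level, was also the library with the highest summed fibroblast markers (25245.0 CPM), and the part of this in the result was not tested.

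**Figure D2:**
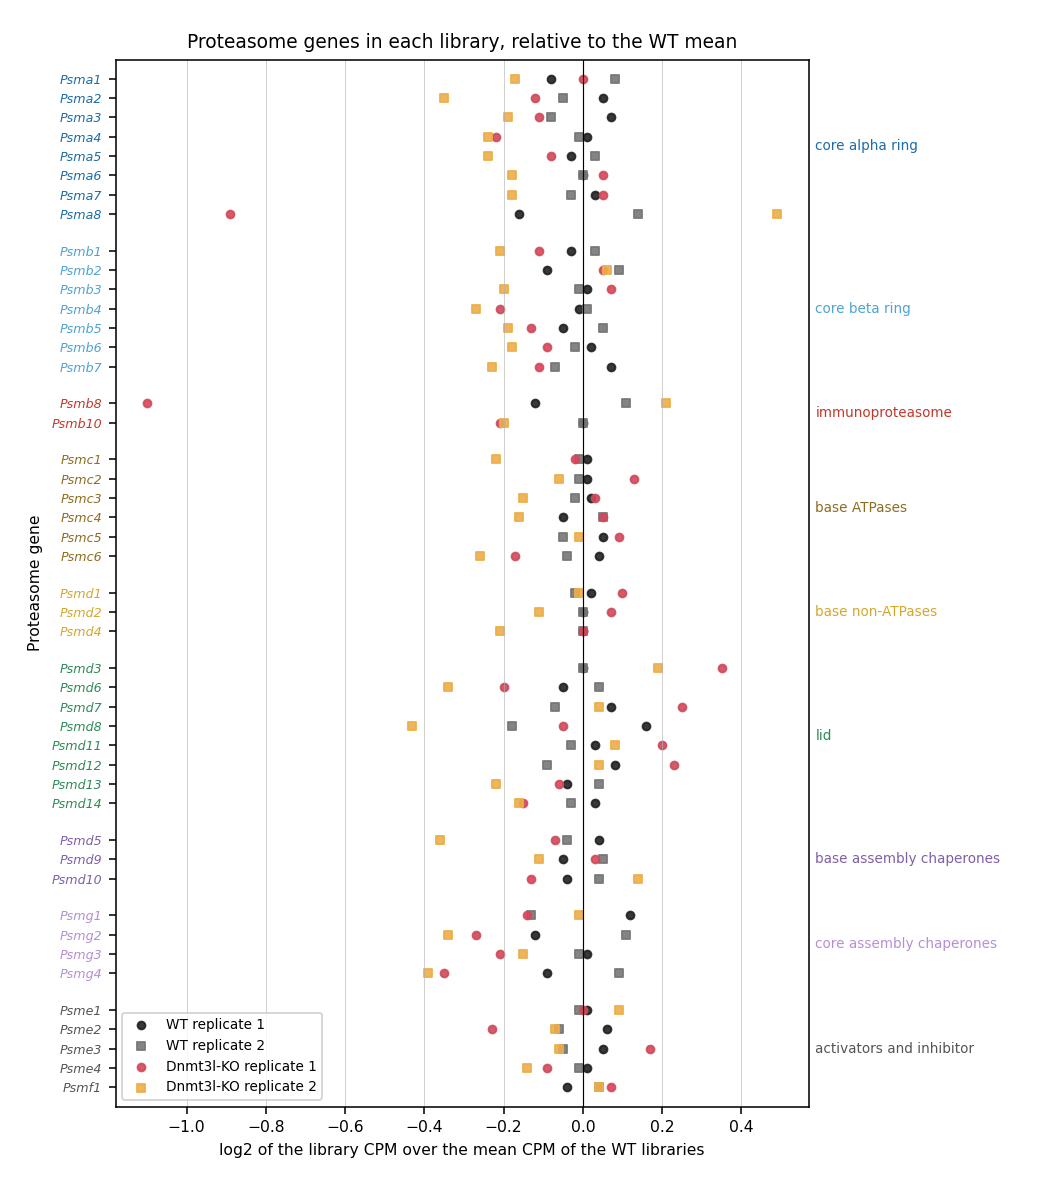
Level of each of the 46 tested proteasome genes in each library (points) as the log2 of its CPM over the mean CPM of the WT libraries, grouped by role in the complex. Dnmt3l-KO replicate 2 lies furthest left for most core genes, and Psmd3 has both Dnmt3l-KO libraries to the right of both WT libraries.

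**Figure D3:**
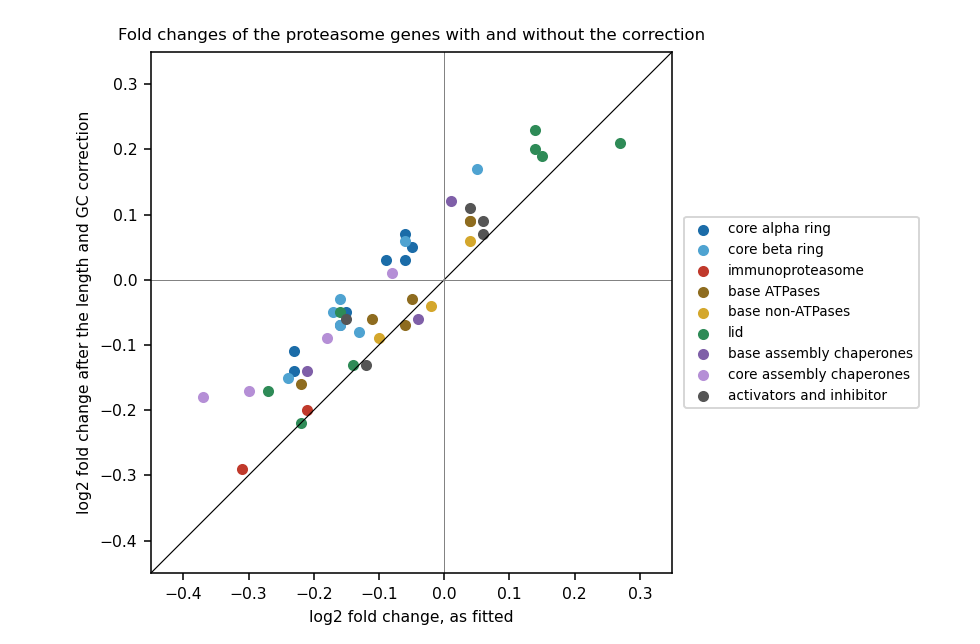
log2 fold change (Dnmt3l-KO minus WT) of the 46 tested proteasome genes as fitted (horizontal axis) and after each library was corrected for transcript length and GC content (vertical axis), with the line of equality. Most points lie above the line, and the median moves from -0.11 to -0.05.

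The alpha ring genes of the core had negative fold changes in 8 of 8 members, with a median of -0.12, and 0 passed in edgeR. Psma4 had 114.6 and 112.3 CPM in WT and 97.2 and 96.0 CPM in Dnmt3l-KO. The libraries of the genotypes did not overlap, and the log2 fold change was -0.23 ± 0.08 (SE; edgeR, unadjusted p = 0.0393, adjusted p = 0.999). Psma2 had 183.3 and 170.3 CPM in WT and 162.5 and 138.3 CPM in Dnmt3l-KO, and Psma5 had 73.7 and 76.9, and 71.3 and 63.7 CPM, also without overlap. Psma3 was the other gene of the ring whose libraries did not overlap, while Psma1, Psma6 and Psma7 did, with Dnmt3l-KO replicate 2 lowest in each. Of all genes tested, 16.5% had both Dnmt3l-KO libraries below both WT libraries. After the length and GC correction 4 of the 8 alpha genes were negative, at a median of -0.01, and Psma4 was at -0.11.

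Psma7 was the most abundant alpha gene per length, at a mean of 165.7 FPKM over the 4 libraries, and Psma5 the least abundant of the 7 general ones, at 53.5 FPKM, a 3.1-fold range. Psma8, which replaces Psma7 in the testis, had only 33 and 36 counts in the WT libraries, against 21 and 46 in those of Dnmt3l-KO. Its log2 fold change of -0.05 had a 95% interval of -1.46 to 1.36, so a change of 2-fold in either direction was not detectable at this depth.

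Among the beta ring genes 6 of 7 tested members had negative fold changes, with a median of -0.16, and 0 passed in edgeR. Psmb4, a structural subunit without an active site, had 150.4 and 152.1 CPM in WT and 131.2 and 125.2 CPM in Dnmt3l-KO. Its libraries did not overlap, and its log2 fold change was -0.24 ± 0.09 (SE; edgeR, unadjusted p = 0.0431, adjusted p = 0.999). Psmb1, another structural subunit, had 157.1 and 164.0, and 149.1 and 139.2 CPM. The catalytic genes were separated in the same way, as were 16.5% of all genes. Psmb5 had 125.8 and 134.6, and 119.2 and 114.2 CPM, and Psmb6 had 154.7 and 150.4, and 142.9 and 135.1 CPM. Psmb7 had 158.8 and 143.7, and 140.2 and 128.9 CPM. The log2 fold changes of Psmb5, Psmb6 and Psmb7 were -0.16 ± 0.09, -0.13 ± 0.09 and -0.17 ± 0.10 (SE). Psmb2, with 110.0 and 124.4, and 121.0 and 121.9 CPM, was the exception, at 0.05 ± 0.10. After the length and GC correction the beta median was -0.05, and Psmb4 was at -0.15.

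The 7 general beta genes were alike in level per length. They ran from 127.7 FPKM (Psmb2) to 158.0 FPKM (Psmb3) as means over the libraries, a 1.24-fold range that was 1.18-fold to 1.38-fold within single libraries. The 6 base ATPase genes spanned 2.15-fold, the 7 alpha genes 3.1-fold and the 8 lid genes 5.96-fold. Psmb11, the thymus-specific beta gene, had no count in WT and only 2 and 5 in the Dnmt3l-KO libraries. It did not pass the filter on low counts, so no fold change is given for it here.

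**Figure D4:**
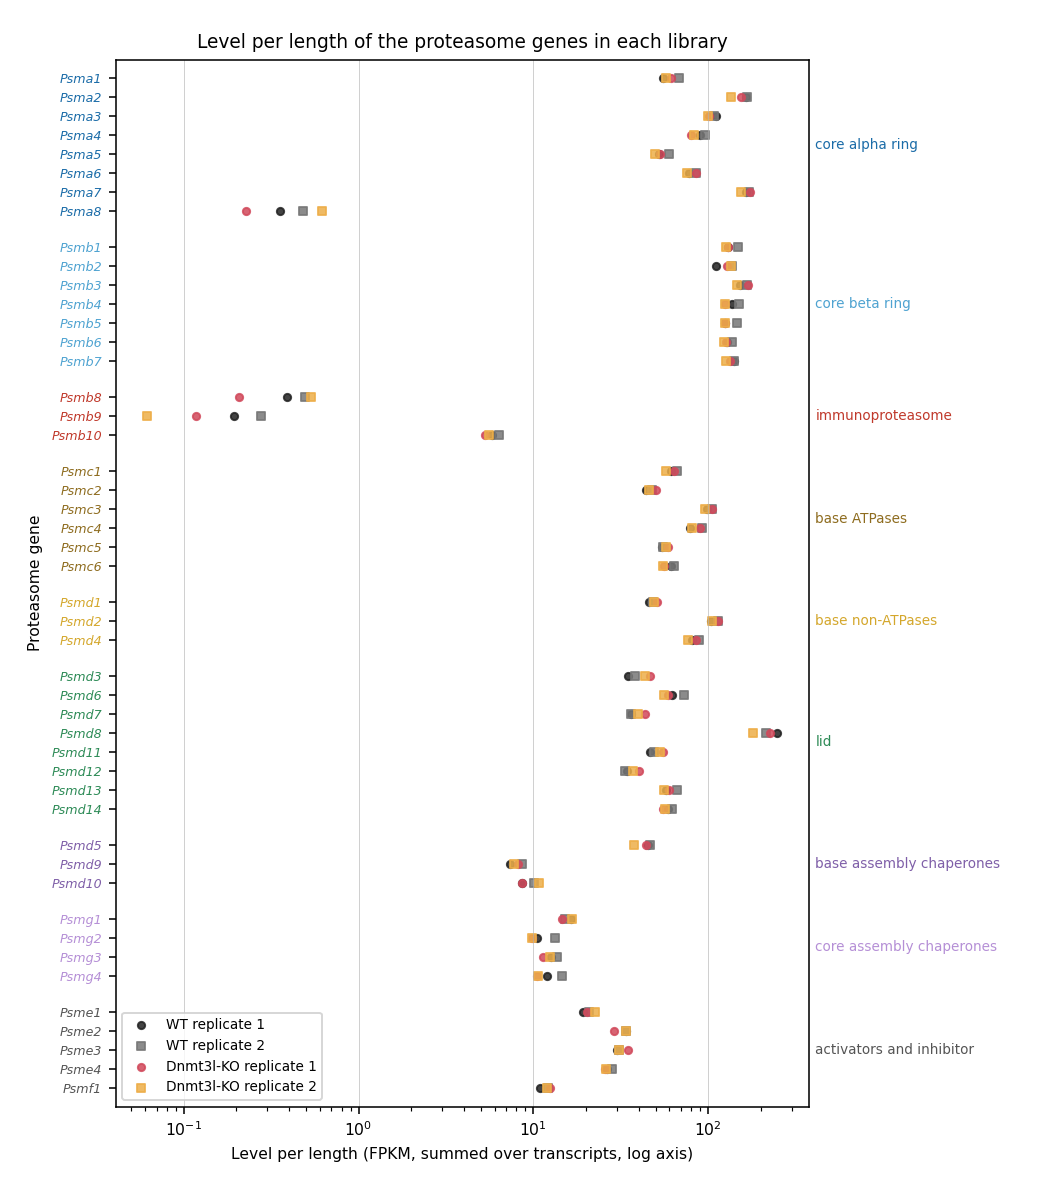
Level per length (FPKM summed over transcripts, log axis) of 47 of the 48 proteasome genes in each of the 4 libraries, grouped by role; Psmb11, at or near 0, is not drawn. The beta ring genes lie close together between 110.3 and 168.1 FPKM, and Psma8, Psmb8 and Psmb9 lie below 1 FPKM.

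No difference between the genotypes was resolved for the immunoproteasome genes, and Psmb8 and Psmb9 had very few counts. Psmb10 (chromosome 8, 105935728 to 105938392, GRCm38) had 8.94 and 8.96 CPM in WT and 7.71 and 7.77 CPM in Dnmt3l-KO. The libraries of a genotype were nearly equal and those of the genotypes did not overlap, and the log2 fold change was -0.21, with a 95% interval of -0.55 to 0.14 (edgeR, unadjusted p = 0.181, adjusted p = 0.999). Psmb8 (chromosome 17, 34198195 to 34201454) had 26 and 27 counts in the WT libraries, against 14 and 29 in those of Dnmt3l-KO, with the lowest and the highest level both in Dnmt3l-KO. Its log2 fold change was -0.31 (-1.71 to 1.09) and turned to 0.21 without Dnmt3l-KO replicate 1, while without Dnmt3l-KO replicate 2 it was -1.09. Psmb9 (chromosome 17, 34182030 to 34187330) had 9 and 10 counts in the WT libraries, against 8 and 4 in those of Dnmt3l-KO, and was not tested. The curated Psmb9 transcript had 9 and 6, and 0 and 0 of these counts. All the others lay in 4 predicted transcripts that held identical counts in pairs, and no source used here says whether their reads were split or counted in duplicate. The totals of all libraries but WT replicate 1, and the Psmb9 FPKM in them, may therefore be too high.

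Interferon and antigen presentation genes give the setting of the immunoproteasome, and none passed the test. Of 19 tested, 0 had an adjusted p under 0.05 in edgeR's quasi-likelihood test, against 0.0203% of all genes. For an unadjusted p under 0.05 the count was also 0, against 4.15% of all genes. Both counts were 0 by DESeq2's Wald test too, which called 0.205% of all genes. The DESeq2 share at the unadjusted level is not given here. With shares this small, counts of 0 do not set these 19 genes apart. Their median log2 fold change was -0.19, with 16 of 19 negative, against 48.7% of all genes. Between the WT libraries, replicate 2 was above replicate 1 by a median of 0.29 on the log2 scale. Set against the WT mean, the median was -0.49 in Dnmt3l-KO replicate 1 but 0.04 in replicate 2. Psmb8 was at -1.10 and 0.21 in the same libraries, and Psmb10 at -0.21 and -0.20. B2m, the light chain of MHC class I, had 417.5 and 378.2 CPM in WT and 340.2 and 359.3 CPM in Dnmt3l-KO. Tap2, a subunit of the peptide transporter encoded beside Psmb8 and Psmb9, had 4.37 and 3.93, and 6.01 and 5.50 CPM, a log2 fold change of 0.47 ± 0.18 (SE; edgeR, unadjusted p = 0.0507, adjusted p = 0.999). Oasl2, an interferon-induced antiviral gene, had 0.255 and 0.431, and 0.120 and 0.215 CPM. The part of interferon signalling in the Psmb8 values was not tested.

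No gene of the base of the regulatory particle passed in edgeR. Its 6 ATPase genes had a median log2 fold change of -0.06, 4 of them negative, and its 3 other genes one of -0.02. The ATPase median was -0.16 without Dnmt3l-KO replicate 1 and turned to 0.04 without replicate 2, and that of the other genes was -0.11 and 0.07. Psmc6 had 111.6 and 105.9 CPM in WT and 96.6 and 90.6 CPM in Dnmt3l-KO, without overlap, at -0.22 ± 0.09 (SE; edgeR, unadjusted p = 0.0636, adjusted p = 0.999). Psmc1 had 106.7 and 105.8, and 105.1 and 91.5 CPM, so that Dnmt3l-KO replicate 1 was just below WT. Psmc3, the most abundant ATPase gene per length (101.0 FPKM), and Psmc2, the least (47.0 FPKM), overlapped between the genotypes, as did Psmc4 and Psmc5. Psmd2, a scaffold subunit of the base, had 360.2 and 361.3, and 378.4 and 335.1 CPM, with Dnmt3l-KO libraries on both sides of WT. Psmd1 had 173.6 and 168.1, and 183.0 and 169.5 CPM, and the ubiquitin receptor Psmd4 had 125.8 and 126.3, and 125.9 and 108.8 CPM.

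The lid genes under the naming rule had 4 negative and 4 positive fold changes, near the 48.7% negative over all genes. Their median was 0.00, which was -0.06 without Dnmt3l-KO replicate 1 and 0.08 without replicate 2. Shfm1, a lid subunit outside the rule that is described with the other pathway genes below, was at -0.48. Psmd3 (chromosome 11, 98682554 to 98695978), a scaffold subunit, had 87.2 and 87.7 CPM in WT and 111.4 and 99.8 CPM in Dnmt3l-KO. The knockout libraries both lay above WT, and the log2 fold change was 0.27 ± 0.10 (SE; 95% interval 0.02 to 0.52; edgeR, unadjusted p = 0.0374, adjusted p = 0.999). Psmd6 (chromosome 14, 14112185 to 14120945), another scaffold subunit, had 94.7 and 100.8, and 84.8 and 77.2 CPM. Here both Dnmt3l-KO libraries lay below WT, at -0.27 ± 0.10 (95% interval -0.52 to -0.02; edgeR, unadjusted p = 0.0392, adjusted p = 0.999). After the length and GC correction these genes were at 0.21 and -0.17. Over all alternatives Psmd3 stayed above 0 and Psmd6 below 0, but these refit the same libraries and are no independent test of the sign.

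Psmd11, Psmd7 and Psmd12 were the other lid genes with positive values. Psmd11 had 94.8 and 90.3 CPM in WT and 106.4 and 98.1 CPM in Dnmt3l-KO, without overlap, at 0.14 ± 0.09 (SE). Psmd7 and Psmd12 were at 0.15 and 0.14 with overlapping libraries. On the negative side, Psmd14, the deubiquitinating enzyme of the lid, had 106.9 and 102.7, and 94.2 and 93.8 CPM, at -0.16 ± 0.09 (SE), and Psmd13 was at -0.14. Among the 48 genes of the naming rule Psmd8 was the most abundant per length in all 4 libraries, with a mean of 216.5 FPKM. It had 440.1 and 345.8 CPM in WT and 380.1 and 292.4 CPM in Dnmt3l-KO. Its libraries overlapped between the genotypes, at -0.22 ± 0.19 (SE). Psmd12 was the least abundant lid gene per length, at 36.3 FPKM.

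**Figure D5:**
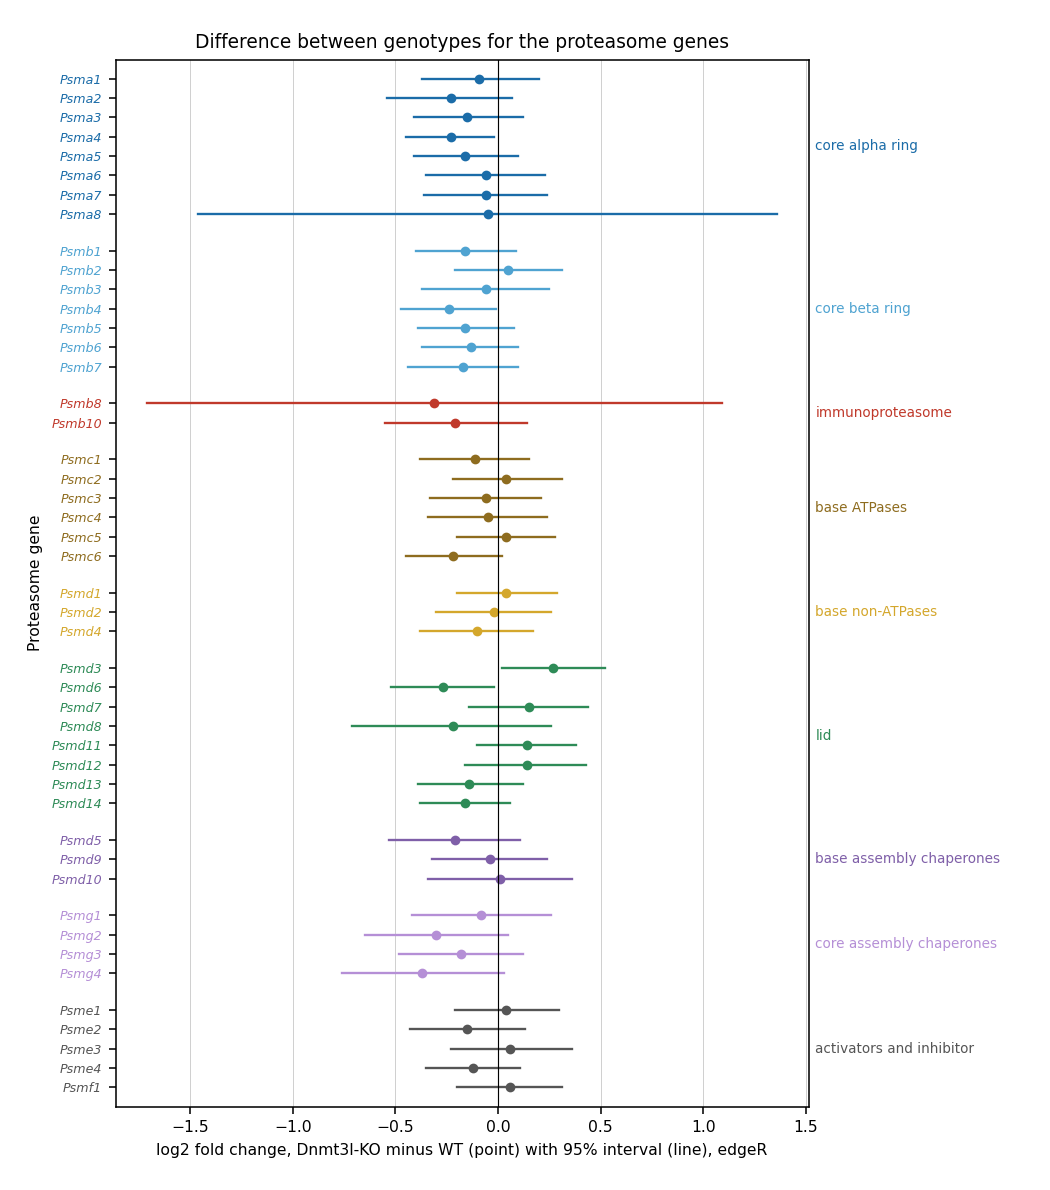
log2 fold change (Dnmt3l-KO minus WT, points) with the 95% interval of edgeR's quasi-likelihood test (lines) for the 46 tested proteasome genes, grouped by role. The intervals of Psma4, Psmb4, Psmd3 and Psmd6 leave out 0 before adjustment, and those of Psma8 and Psmb8 are the widest.

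Summed over genes, the core was lower in both Dnmt3l-KO libraries than in WT, while the base and lid overlapped. The 14 constitutive core genes had 1898.7 and 1881.3 CPM in WT and 1798.7 and 1642.9 CPM in Dnmt3l-KO, so both knockout libraries lay below WT, and the mean was 91.0% of the WT mean. The 17 base and lid genes under the naming rule had 2435.9 and 2319.1 CPM in WT and 2436.5 and 2138.0 CPM in Dnmt3l-KO. This was a mean of 96.2% of WT with overlapping libraries, and Shfm1 is not in the sum. Whether the core differed from the base and lid was not tested. Of the 14 core genes 13 had a negative fold change, 10 without Dnmt3l-KO replicate 2 and 9 after the length and GC correction, with medians of -0.15, -0.10 and -0.05. After the same correction the core median of -0.046 was close to those of the base ATPase genes (-0.044) and the other base genes (-0.035). The lid median was then 0.069.

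Chaperones that assemble the core before it is active were at 10.9 to 15.7 FPKM, below every general core, base and lid gene, and had negative fold changes in 4 of 4 members, at a median of -0.24. Psmg4 had 7.71 and 8.72 CPM in WT and 6.45 and 6.29 CPM in Dnmt3l-KO, at -0.37 ± 0.15 (SE; edgeR, unadjusted p = 0.0638, adjusted p = 0.999). Psmg2 had 12.4 and 14.4, and 11.1 and 10.6 CPM, at -0.30 ± 0.14 (SE), and Psmg3 had 12.4 and 12.2, and 10.6 and 11.1 CPM, at -0.18 ± 0.12 (SE). These 3 genes had both Dnmt3l-KO libraries below both WT libraries, as had 16.5% of all genes. Psmg1, the most abundant of the 4 at 15.7 FPKM, overlapped between the genotypes. After the length and GC correction the median of the 4 was -0.13, with 3 negative. The base chaperones Psmd5, Psmd9 and Psmd10 had log2 fold changes of -0.21 ± 0.12, -0.04 ± 0.11 and 0.01 ± 0.14 (SE). Psmd5 had 107.9 and 102.0, and 99.8 and 81.9 CPM, without overlap, and was the most abundant of the 3 per length (43.3 FPKM against 7.98 FPKM for Psmd9).

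No activator of the core passed in edgeR, nor did its inhibitor. Psme1 and Psme2, which form the interferon-inducible ring that opens the core, had 22 and 21.8, and 21.9 and 23.2 CPM, and 35.6 and 32.7, and 29.1 and 32.4 CPM. Psme2 was the gene of this class highest in level per length (32.6 FPKM). Psme3, which forms the nuclear ring, overlapped between the genotypes. Psme4, the single-chain activator, had 195.4 and 192.2, and 181.7 and 175.7 CPM, without overlap, at -0.12 ± 0.09 (SE). Psmf1, described as an inhibitor of the core, had 24.0 and 25.5, and 26 and 25.5 CPM, and was the least abundant per length (11.9 FPKM). The 5 log2 fold changes ran from -0.15 to 0.06.

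Most genes with several transcripts used one of them. Among the 21 tested genes with more than 1 transcript, 16 had over 90% of their counts in a single one. The exceptions were Psmb10, Psmd4, Psmf1, Psmg2 and Psmg4. For Psmg2 the predicted transcript held 59.5% and 50% of the gene's counts in the WT libraries, against 40.5% and 41.8% in those of Dnmt3l-KO. It had 346 and 301, and 225 and 185 counts, and the curated transcript 236 and 301, and 330 and 258. The authors' deposited table gave the predicted one a log2 fold change of -0.55 with a standard error of 0.29 and an adjusted p of 0.99. How the estimate divides reads between such transcripts was not given in the sources used here.

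Near-identical copies make some values uncertain. A sequence comparison found 14 copies of 9 proteasome genes, with 95.6% to 100% identity over at least 80% of the copy. Of these 13, all annotated as pseudogenes, have no symbol of their own in the deposited table, and they copy Psma3, Psma4, Psma5, Psmb3, Psmb5, Psmc1, Psmd2 and Psmd11. Whether reads from those copies were counted with the parent gene was not tested. The remaining one, Psme2b, 99.37% identical to Psme2 over 794 bases, had 81 and 44, and 82 and 18 counts, beside 1675 and 1364, and 1453 and 1356 for Psme2.

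Other genes of the ubiquitin and proteasome system, from a list of 25 partners and 10 transcriptional regulators, had a median log2 fold change of 0.04. Of these 35, 0 passed in edgeR, against 0.0203% of all genes, and 0 by DESeq2's Wald test, against 0.205%. At an unadjusted p under 0.05 edgeR had 3 of the 35, against 4.15% of all genes. DESeq2 had 2 at that level, and its share over all genes is not given here. The 35 genes were divided in sign, with 14 negative and 21 positive, and 48.7% of all genes were negative. Shfm1, the smallest lid subunit under another name, had 158.2 and 135.3 CPM in WT and 106.8 and 103.4 CPM in Dnmt3l-KO. The knockout libraries both lay below WT, at -0.48 ± 0.11 (SE; edgeR, unadjusted p = 0.00753, adjusted p = 0.999), and it was at -0.37 after the length and GC correction. Ubb, a polyubiquitin gene, had 553.6 and 565.2, and 701.9 and 703.6 CPM, at 0.33 ± 0.10 (SE; edgeR, unadjusted p = 0.0206, adjusted p = 0.999), with both Dnmt3l-KO libraries above WT. Txnl1, a thioredoxin-like protein bound to the regulatory particle, had 139.0 and 131.0, and 119.2 and 110.7 CPM. Fbxo7, a ubiquitin ligase subunit, was the least abundant partner per length (4.98 FPKM). Pomp, the maturation factor of the core, named outside the rule after its values were seen, had 91.4 and 83.7, and 78.6 and 73.5 CPM.

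Among the regulators, 8 of 10 had positive fold changes, with a median of 0.10, while 48.7% of all genes had negative ones. Both Dnmt3l-KO libraries lay above both WT libraries in 4 of the 10 and below them in 1, and 5 overlapped. Over all genes the shares above and below were 16.2% and 16.5%. Nfe2l1, the most abundant per length (42.8 FPKM), had 214.4 and 181.7 CPM in WT and 218.4 and 238.3 CPM in Dnmt3l-KO. Both Dnmt3l-KO libraries were above WT, at 0.21 ± 0.12 (SE; 95% interval -0.11 to 0.52). Ddi2, the protease that releases Nfe2l1 from the endoplasmic reticulum, had 29.5 and 28.8, and 35 and 34.5 CPM, at 0.25 ± 0.09 (SE; edgeR, unadjusted p = 0.0403, adjusted p = 0.999). Mafg, a small Maf partner of Nfe2l1, had 63.4 and 53.1, and 65.4 and 70.1 CPM. Nfyb, a subunit of the factor that binds the CCAAT box, had 21.8 CPM in both WT libraries and 17.8 and 19.2 CPM in Dnmt3l-KO. Ngly1, which removes sugars from Nfe2l1, was the least abundant per length and overlapped between the genotypes.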

How the data were processed

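RNA-seq of 4 MEF libraries was read from a deposited table. The authors named DESeq2 1.8.0, eXpress 1.4.1, Cufflinks 2.2.1 and TopHat2 2.0.12 with build mm10, per the submitters' processing notes; their roles are not given in the sources used here. The deposited estimated counts are whole numbers per RefSeq transcript, beside FPKM values, per the file headers. The deposited columns of the authors' own comparison hold a mean signal, log2 fold changes, a test score and p-values, per the file headers.

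Counts and FPKM were summed per symbol. Dnmt3l-KO minus WT was tested over 14760 symbols that passed edgeR's expression filter (edgeR 4.0.16, R 4.3.3, TMM, robust quasi-likelihood F-test, Benjamini-Hochberg adjustment, threshold 0.05). Standard errors and 95% intervals were derived from the F statistic. CPM use TMM library sizes. The depth sets a floor of 3 counts, 0.0601 to 0.0719 CPM, for counting error only. Copies were sought with BLAST 2.17.0 in GENCODE transcripts. Alternatives used DESeq2 1.42.0, limma 3.58.1, other filters and normalizations, the replicate number as a block, copies summed, each library left out, and, chosen after seeing the data, loess correction (span 0.4) for length and GC content (13809 genes).

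The members and lists were chosen with earlier results of these data known. Genes given with values were the immunoproteasome genes and their counterparts, and in each class or list up to 3 with the smallest p and the most and least abundant per length; other genes are given by role or range. The values of 1 gene are not reported here.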

Additional observations from a re-analysis of the deposited data

How the results depend on the processing

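Over 15 alternatives 0 proteasome genes and 0 of the other 35 pathway genes were called in any. The count over all genes, 3, was 32 by DESeq2, 8 with no filter, 1 with at least 10 counts in every library, and 6 and 9 by limma on log2(FPKM + 1) and log2(FPKM + 0.1); leaving out 1 library gave 2 to 6. The median of the proteasome genes, -0.108, was -0.169 to -0.074 with 1 library left out and -0.050 after the length and GC correction. For the immunoproteasome genes, leaving out 1 library gave -0.417 to 0.002, with Psmb8 between -1.09 and 0.21. With the replicate block the proteasome median was -0.117 and 4 genes were called over all genes. Same-numbered libraries deviated together only weakly (correlation 0.1 over genes), and the labels give the numbers no shared embryo or day, so they were not taken as pairs. Of 180 values of 12 single genes under the alternatives, 0 passed the threshold and 1 was opposite in sign. The alternatives refit the same libraries, so they are no independent test of these signs. The low counts of Psma8, Psmb8, Psmb9 and Psmb11 limit what can be said of them.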

Other observations

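Psmc3ip, which is named after the ATPase gene Psmc3 but encodes a recombination factor, had 4.29 and 4.10 CPM in WT and 3.57 and 3.83 CPM in Dnmt3l-KO, at a log2 fold change of -0.18 ± 0.20 (SE). Pithd1, whose name refers to a proteasome-interacting domain, had 13.5 and 15.1, and 16.1 and 13.0 CPM. LOC102642709, described as similar to Pomp, had 13 and 11, and 9 and 10 counts. These genes fall outside the naming rule and were singled out after their values were seen.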
